A study of Mus musculus with 2 samples.

Results

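T cell checkpoint genes were measured across sections of mouse pancreatic tumors by spatial transcriptomics. The genes were the inhibitory receptors Pdcd1, Ctla4, Lag3, Tigit and Havcr2, the ligands Cd274, Pdcd1lg2 and Lgals9, and the transcription factor Tox. They were taken by symbol and made up 9 of the 19465 features of the count matrices. All 9 had at least 100 UMIs (unique molecular identifiers, each standing for 1 captured molecule) in each library, the minimum set for a gene in the comparisons.

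The study asked how loss of ZEB1 in pancreatic cancer cells alters the tumor and its immune cells. KPC cells, a mouse pancreatic cancer line from a Pdx-1-Cre model, were infected with lentivirus carrying a short hairpin against Zeb1 (KPC-shZEB1) or the control vector (KPC-shV), kept under antibiotic selection and injected orthotopically into the mouse pancreas. Both groups therefore share the KPC background, the lentiviral infection and the host pancreas, and differ by the hairpin, which the injected cells carry and host cells do not. The methods give 2 tumors per group, 1 library per group was analyzed here, and the tumor behind each library, its stable line and the strain of its host are not given in the sources used here. For the mice of the study as a whole the methods name the strains C57BL/6J, BALB/c and NSG and an age of 4 to 6 weeks. The paper states that the spatial assay used the tumors of its single-cell sequencing, which came from mice given gemcitabine. The labels themselves name no drug. With 1 library per group there was no replicate and no test: every interval below is a 95% interval that covers counting error only, and a difference between the libraries is a difference between these sections.

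Checkpoint receptors are surface proteins that dampen T cell activation when they meet their ligands. PD-1 (Pdcd1) binds PD-L1 (Cd274) and PD-L2 (Pdcd1lg2), CTLA-4 competes with the costimulatory receptor CD28 for CD80 and CD86, TIGIT binds PVR and NECTIN2, LAG-3 binds MHC class II among other partners, and TIM-3 (Havcr2) is found on T cells and on myeloid cells and has galectin-9 (Lgals9) among its proposed ligands. Tox is a transcription factor that sustains PD-1 in chronically stimulated CD8+ T cells, and PD-L1 is induced by interferon-gamma and has been described as a target of hypoxia-inducible factors.

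Sequencing gave 140493626 UMIs over 2220 spots (median 59957.5 per spot) for the library labelled KPC-shZEB1 and 172059528 UMIs over 3552 spots (median 52544.5) for KPC-shV. Each spot is a small area that can hold several cells, so fewer cells of a type and less RNA per cell cannot be told apart. Normal acinar tissue differed between the sections: spots with over 20% of their UMIs from acinar enzyme genes were 34.2% of spots and 39.2% of UMIs in the KPC-shZEB1-labelled library, against 7.07% and 3.78% in KPC-shV. The ratio of KPC-shZEB1 to KPC-shV, on the log2 scale, had a median of -0.48 among the 15358 genes with enough UMIs in all spots and -0.02 among 14381 genes outside acinar-rich spots, and both ratios are given for the checkpoint genes. Levels are given as CPM, UMIs per 1000000 UMIs of the same spots. The targeted gene did not separate the libraries: Zeb1 stood at 10.8 CPM in the KPC-shZEB1-labelled library and 12.4 in KPC-shV over all spots (log2 ratio -0.20, interval -0.30 to -0.11), and at 15.6 and 12.7 CPM outside acinar-rich spots (0.30, 0.20 to 0.40). Outside acinar-rich spots Zeb1 thus went against the label, and every direction below is that of the library so labelled. Tumor epithelial genes summed to 5825 and 6393 CPM there, so both sections held epithelium. As a floor of stray signal, 18 genes with no known role in pancreas or tumor stood between 0.292 and 1.28 CPM in the KPC-shZEB1-labelled library and between 0.442 and 1.45 CPM in KPC-shV. The libraries shared 1718 spot barcodes, which on this platform are array positions and not cells.

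Pdcd1 and Ctla4 were the members with the largest excess in the KPC-shZEB1-labelled library. Over all spots Pdcd1 (ENSMUSG00000026285, GRCm38 chr1:94038305-94052553, minus strand) stood at 4.38 CPM in that library and 1.91 in KPC-shV, from 615 and 328 UMIs, a log2 ratio of 1.20 (1.004 to 1.40). Outside acinar-rich spots the levels were 6.81 and 1.94 CPM and the log2 ratio was 1.81 (1.61 to 2.01). Ctla4 (ENSMUSG00000026011, chr1:60887000-60915832, plus strand) likewise had 4.38 and 2.07 CPM over all spots and 6.81 and 2.12 CPM outside acinar-rich spots (log2 ratio 1.68, 1.49 to 1.88). Its UMI totals in the KPC-shZEB1-labelled library equalled those of Pdcd1, although the counts differed from spot to spot. Both KPC-shV levels lay just above the highest of the 18 genes with no known role here (1.45 CPM).

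Lag3, Tigit and Havcr2 did not share that excess. Lag3 (ENSMUSG00000030124, chr6:124904361-124911705, minus strand) stood at 2.41 CPM in the KPC-shZEB1-labelled library and 3.12 in KPC-shV over all spots (log2 ratio -0.38), and at 3.75 and 3.20 outside acinar-rich spots (0.23, 0.02 to 0.43). The order of the libraries for Lag3 therefore turned with the removal of acinar tissue. Tigit (ENSMUSG00000071552, chr16:43648867-43664146, minus strand) was lower in the KPC-shZEB1-labelled library over all spots, at 1.60 against 2.69 CPM, and its interval included no difference outside acinar-rich spots (2.49 and 2.77 CPM, log2 ratio -0.15, -0.39 to 0.08). Havcr2 (ENSMUSG00000020399, chr11:46454935-46481255, plus strand), which myeloid cells also express, was lower with and without acinar tissue, at 11.7 against 13.2 CPM outside it (log2 ratio -0.18, -0.29 to -0.07). Summed over Pdcd1, Ctla4, Lag3 and Tigit, the receptors stood at 12.8 and 9.79 CPM over all spots (log2 ratio 0.38). Outside acinar-rich spots they stood at 19.9 and 10.0 CPM (0.99). The sum leaves out Havcr2, which over all spots stood above each of the 4, at 7.27 and 12.8 CPM. Since Havcr2 was lower in the KPC-shZEB1-labelled library, the direction of the sum holds for these 4 genes only.

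**Figure D1:**
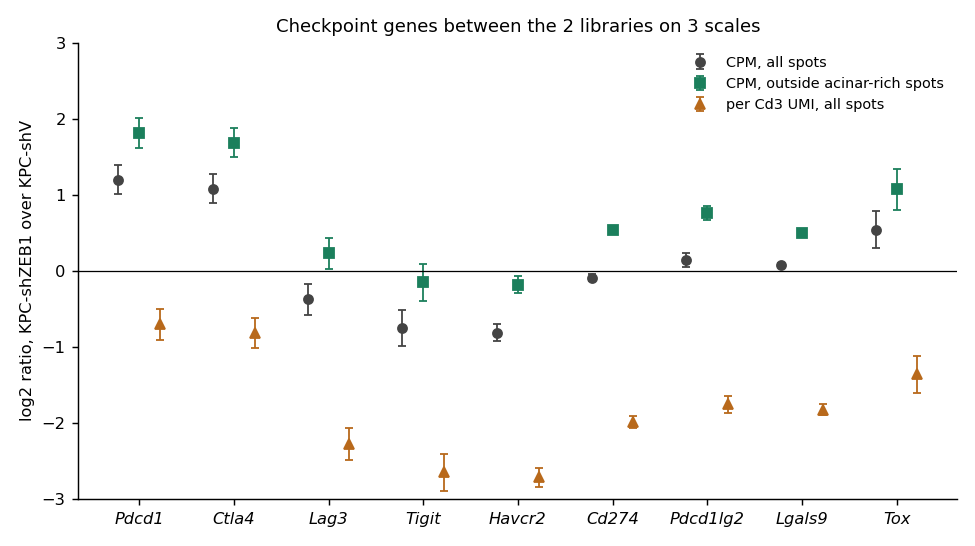
Log2 ratio (y axis, KPC-shZEB1 over KPC-shV) of the 9 checkpoint genes as CPM over all spots (circles), as CPM outside acinar-rich spots (squares) and per Cd3 UMI over all spots (triangles), with 95% counting intervals and 1 library per group. Pdcd1 and Ctla4 lie highest on each scale (1.81 and 1.68 outside acinar-rich spots), and every gene lies below 0 per Cd3 UMI.

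Against the rest of the transcriptome, 2 of the 9 members were at least 2-fold higher in the KPC-shZEB1-labelled library over all spots and none was at least 2-fold lower, where 2.40% of all genes were higher and 9.21% were lower by that much. Outside acinar-rich spots 3 of the 9 were at least 2-fold higher (Pdcd1, Ctla4 and Tox) and none lower, beside 4.81% and 2.02% of all genes. Of these, Tox in KPC-shV (1.30 CPM) lay within the range of the 18 genes with no known role. The median log2 ratio of the members was 0.08 over all spots and 0.53 outside acinar-rich spots.

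Cd3 transcripts differed more between the libraries than any checkpoint receptor did. Cd3d, Cd3e and Cd3g, the invariant chains of the T cell receptor complex, summed to 79.3 CPM outside acinar-rich spots in the KPC-shZEB1-labelled library and 13.7 in KPC-shV (log2 ratio 2.54), and the CD8 coreceptor genes differed by 2.36. B cell genes (1.58), interferon response genes (1.30) and regulatory T cell genes (0.95) were also higher in that library, whereas neutrophil genes (-1.26) and hypoxia genes (-0.99) were lower. How far these lists account for the receptor levels was not tested.

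Set against Cd3, every member was lower in the KPC-shZEB1-labelled library. Over all spots Pdcd1 had 8.81 UMIs per 100 Cd3 UMIs in that library and 14.3 in KPC-shV, a log2 ratio of -0.70 (-0.91 to -0.50). Ctla4 had 8.81 and 15.6 (-0.82, -1.02 to -0.62), and Lag3 had 4.84 and 23.5 (-2.28). Pdcd1 and Ctla4 were thus nearer to keeping step with Cd3 than Lag3 was. In KPC-shV Pdcd1 (1.91 CPM) and Ctla4 (2.07) lay near the genes with no known role (up to 1.45). Stray signal was not subtracted from the quotients of single genes, and the intervals do not cover it. Tigit stood at 3.22 and 20.2 per 100 Cd3 UMIs (-2.65), Havcr2 at 14.7 and 96.2 (-2.72) and Tox at 4.47 and 11.5 (-1.36). The median gene had a log2 ratio of -2.38 on this scale, since Cd3 itself was so much higher, so Lag3, Tigit and Havcr2 lay close to the median gene. Other T cell genes give the range that the same quotient took: Cd5 (-0.06) and Trbc2 (-0.09) kept step with Cd3, Trac stood at -0.40, Lck (-0.77) lay beside Pdcd1 and Ctla4, and Cd2 (-1.04), Cd6 (-1.42) and Trbc1 (-3.54) lay lower. Foxp3, the transcription factor of regulatory T cells, stood at -1.37 and Cd28, the costimulatory rival of CTLA-4, at -0.95.

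The choice of the T cell yardstick decided the sign of the sum. The 4 summed receptors had a log2 ratio of -1.52 per Cd3 UMI (25.7 and 73.6 per 100), -1.34 per CD8 coreceptor UMI and 0.09 per UMI of 9 other T cell genes. That last list held Trbc1, whose counts did not follow the other T cell receptor chains: it had a log2 ratio of -3.54 per Cd3 UMI, against -0.40 for Trac and -0.09 for Trbc2. Without Trbc1 the ratio was -1.15.

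Within each library, Pdcd1 and Ctla4 climbed with the Cd3 content of the spot. With every spot thinned at random to 20000 UMIs, spots outside acinar tissue with no Cd3 UMI (511 in the KPC-shZEB1-labelled library) had 7.05 Pdcd1 UMIs per 100 spots, those with 1 had 13.0, those with 2 to 3 had 15.3 and those with 4 or more (192 spots) had 24.5. In KPC-shV the same classes held 2139, 374, 135 and 23 spots and had 2.90, 6.42, 12.6 and 30.4 Pdcd1 UMIs per 100 spots. Ctla4 went from 6.07 to 36.5 and from 3.18 to 30.4. At 4 or more Cd3 UMIs the KPC-shV value of either gene rested on 7 UMIs in 23 spots, with an interval of 12.2 to 62.7 per 100 spots, which cannot separate the libraries. At 0 Cd3 UMIs the KPC-shZEB1-labelled library had more than 2 times the Pdcd1 signal of KPC-shV. Cd8a, a CD8 coreceptor gene, also differed in these spots, at 6.26 and 2.34 UMIs per 100. A spot with no Cd3 UMI at this depth may thus still hold T cells, and their part in the Pdcd1 signal was not tested. Lag3 went from 5.09 to 12.0 in the KPC-shZEB1-labelled library and from 5.42 to 17.4 in KPC-shV. Tigit ranged from 3.33 to 7.29 in the former and had no UMI in the 23 KPC-shV spots richest in Cd3.

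**Figure D2:**
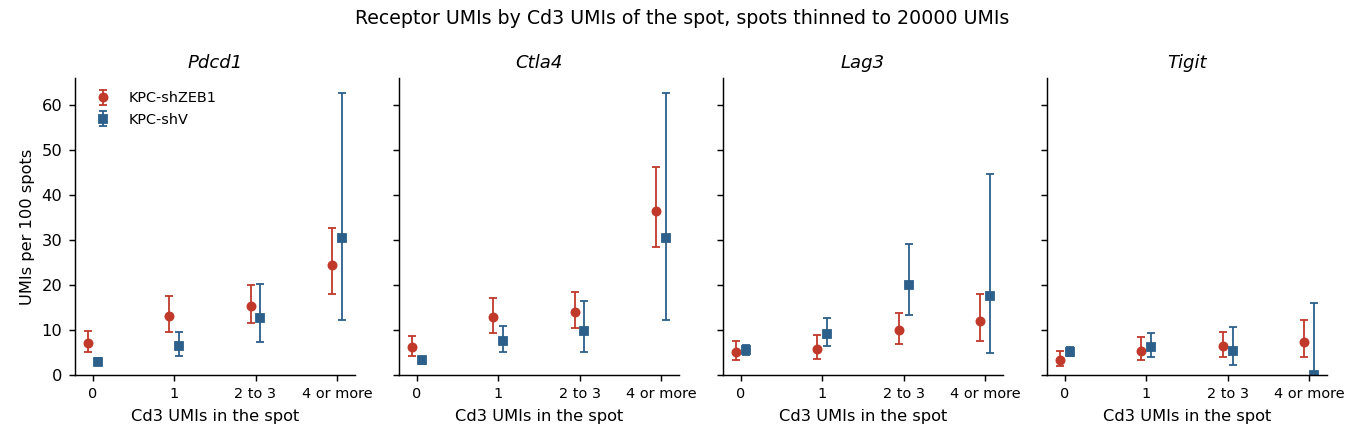
UMIs of Pdcd1, Ctla4, Lag3 and Tigit per 100 spots (y axis, 95% counting intervals), after thinning each spot to 20000 UMIs, by the number of Cd3 UMIs in the spot (x axis), outside acinar-rich spots of each library. Pdcd1 and Ctla4 climb with Cd3 in both libraries, to 24.5 and 36.5 in KPC-shZEB1 and 30.4 for each gene in KPC-shV, while Tigit stays below 8 throughout.

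After thinning, each receptor by itself was seen in a minority of spots. At 20000 UMIs, Pdcd1 was seen in 11.1% of 1407 spots outside acinar tissue in the KPC-shZEB1-labelled library and in 3.93% of 2671 spots in KPC-shV, with median depths before thinning of 59246 and 61564 UMIs. In acinar-rich spots, where few T cells would be found, it was seen in 1.48% and 2.63% (median depths 67016 and 33334). Ctla4 was seen in 11.9% and 4.16% of spots outside acinar tissue. The corresponding shares were 7.04% and 6.51% for Lag3, 5.05% and 5.17% for Tigit, and 19.8% and 22.5% for Havcr2, and in acinar-rich spots these 3 genes and Ctla4 ranged from 0.27% to 3.95%. The median gene with no known role here was seen in 1.81% and 1.55% of spots outside acinar tissue. All 5 receptors therefore lay above that background outside acinar tissue, and Pdcd1 and Ctla4 in KPC-shV by the least.

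Spots were next classed by the expression of marker lists that held no member. A class was the top 10% of spots by its list, pooled over both libraries, outside acinar-rich spots and at 5000 UMIs or more, and members were compared between the class and the remaining spots of the same library. Spots of 1 section are not replicates. T cell rich spots (by Cd3d, Cd3e and Cd3g) numbered 364 in the KPC-shZEB1-labelled library and 95 in KPC-shV, or 25.0% and 3.04% of the pool. Their median depths differed (55959 and 19088 UMIs), where the remaining spots had 59242 and 57702.

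T cell rich spots had higher levels of most receptors in both libraries. Pdcd1 stood at 12.5 CPM in T cell rich spots and 5.09 in other spots of the KPC-shZEB1-labelled library (log2 ratio 1.30, 1.06 to 1.54), and at 11.3 and 1.80 CPM in KPC-shV (2.64, 2.02 to 3.22). Ctla4 stood at 14.9 and 4.37 CPM in the former (1.77) and 12.5 and 1.96 in the latter (2.68). With this limit, which is the same Cd3 level in both libraries, the levels inside T cell rich spots were thus near each other for both genes and those in other spots lay further apart. With a limit set within each library (146 and 313 spots), Pdcd1 stood at 14.2 and 5.58 CPM inside T cell rich spots. Ctla4 stood at 22.3 and 7.56 CPM, so both were higher in the KPC-shZEB1-labelled library. Tigit with these limits was higher in T cell rich than in other spots of that library (log2 ratio 1.18, 0.63 to 1.70). In KPC-shV Tigit stood at 2.25 against 2.79 CPM from 25 UMIs (-0.31, -0.95 to 0.27), an interval that included no difference. These limits were 184 and 54.0 CPM of Cd3 genes, and Cd3 genes inside stood at 280 and 97.5 CPM. The classes were therefore not equally rich in Cd3. With the pooled limit, Lag3 was higher in T cell rich spots by 0.72 (5.36 against 3.26 CPM) and by 2.19 (13.8 against 3.02 CPM). Havcr2 was higher by 0.44 and 1.17. Tigit was higher by 0.83 in the KPC-shZEB1-labelled library and gave 5 UMIs in the T cell rich spots of KPC-shV, too few to place it with the pooled limit. Of the UMIs in the classed spots (outside acinar-rich spots, 5000 UMIs or more), T cell rich spots held 42.6% for Pdcd1 and 50.7% for Ctla4 in the KPC-shZEB1-labelled library, and 8.44% and 8.62% in KPC-shV.

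Counted as at least 2-fold higher in T cell rich spots, 4 of 9 members passed in the KPC-shZEB1-labelled library and 6 of 9 in KPC-shV, beside 4.45% and 23.2% of all genes. The KPC-shV background was high, and the 18 genes with no known role were themselves higher in its T cell rich spots by 0.91, against 0.26 in the KPC-shZEB1-labelled library. Macrophage genes were higher in the same spots by 0.91 in the KPC-shZEB1-labelled library and 1.76 in KPC-shV, and B cell genes by 1.53 and 2.81, and their part in the receptor levels was not tested.

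Inside T cell rich spots the quotient to Cd3 was close to equal for Pdcd1 and Ctla4. Pdcd1 had 6.47 UMIs per 100 Cd3 UMIs in each library (log2 ratio 0.00, interval -0.59 to 0.59), and Ctla4 had 7.69 in KPC-shZEB1 and 7.19 in KPC-shV (0.10, -0.46 to 0.66). At this depth a difference within these intervals, in either direction, could not be seen. Lag3 had 2.76 and 7.91 (-1.52) and Havcr2 7.51 and 16.8 (-1.16), both lower in the KPC-shZEB1-labelled library. Tigit rested on 74 and 5 UMIs. The Cd3 genes that chose these spots also form the denominator of the quotient. Over all classed spots Pdcd1 had 8.60 UMIs per 100 Cd3 UMIs in KPC-shZEB1 and 14.2 in KPC-shV, and Ctla4 had 8.60 and 15.5. The part of the choice of spots in the near-equal values was not tested.

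In macrophage-rich spots (148 in the KPC-shZEB1-labelled library and 311 in KPC-shV) most receptors were higher as well. Median depths were 46909.5 and 25630 UMIs there, against 59585 and 59687.5 in the remaining spots. Ctla4 stood at 18.7 CPM there and 5.73 in other spots of the KPC-shZEB1-labelled library (log2 ratio 1.70), and at 8.11 and 1.77 in KPC-shV (2.20). Lag3 was higher by 1.22 and 1.76, Pdcd1 by 0.89 and 1.53, and Havcr2 by 0.54 (16.3 against 11.2 CPM) and 1.11 (26.9 against 12.4 CPM). Tigit was higher by 0.68 in the KPC-shZEB1-labelled library, with an interval of 0.04 to 1.27, and by 0.04 in KPC-shV (-0.61 to 0.62). At least 2-fold higher were 3 of 9 members in the KPC-shZEB1-labelled library and 5 of 9 in KPC-shV, beside 12.3% and 16.8% of all genes. T cells were not absent from these spots: Cd3 genes were higher there by 1.39 and 2.53, and 59.5% of macrophage-rich spots in the KPC-shZEB1-labelled library and 16.7% in KPC-shV were also T cell rich. Whether the receptors there came from T cells or macrophages was not tested.

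Against macrophage genes, too, Havcr2 was lower in the KPC-shZEB1-labelled library. Over all spots its UMIs per 100 macrophage UMIs were 0.416 in the KPC-shZEB1-labelled library and 0.752 in KPC-shV (log2 ratio -0.85, -0.96 to -0.75). Outside acinar-rich spots they were 0.445 and 0.774 (-0.80, -0.91 to -0.69). Macrophage genes were themselves higher in CPM there in the KPC-shZEB1-labelled library, and Havcr2 as CPM had a log2 ratio of only -0.18. A gene level in CPM would thus also be lower on this scale outside acinar-rich spots. The median gene was not placed on it.

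**Figure D3:**
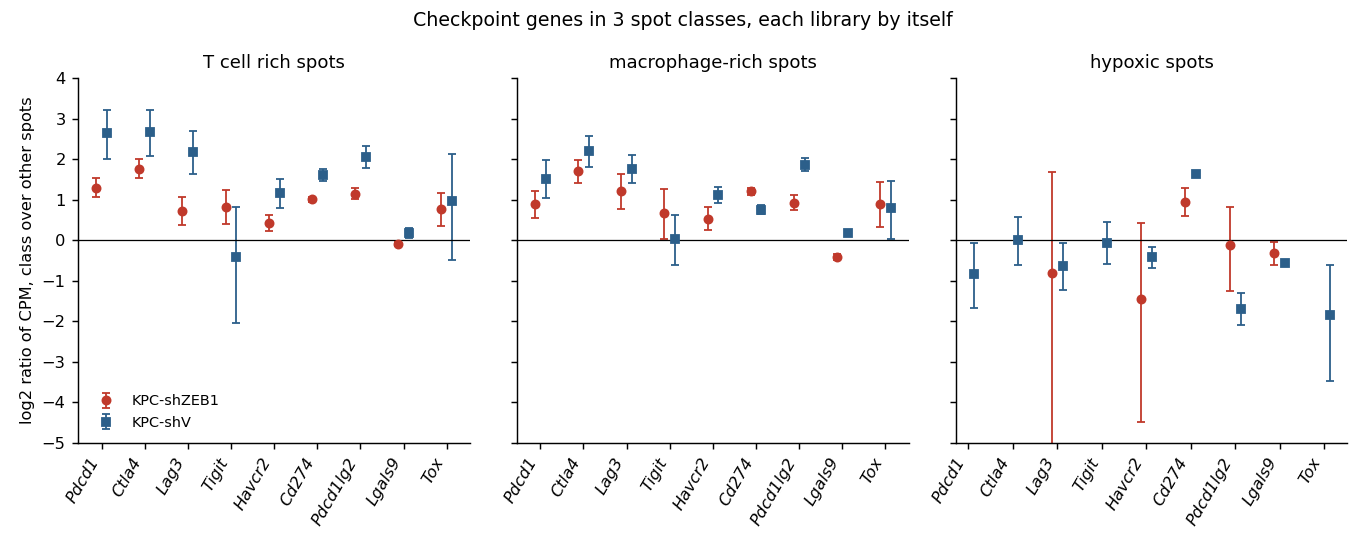
Log2 ratio of CPM (y axis) of each checkpoint gene in T cell rich, macrophage-rich and hypoxic spots over the remaining spots of the same library, with 95% counting intervals (circles KPC-shZEB1, squares KPC-shV, no point where the class had no UMI). Pdcd1 and Ctla4 are higher in T cell rich spots of both libraries (1.30 and 1.77 in KPC-shZEB1, 2.64 and 2.68 in KPC-shV), and in hypoxic spots of KPC-shV Cd274 (1.63) and Pdcd1lg2 (-1.69) lie on opposite sides of 0.

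The PD-1 ligands are neighbors in the genome. Cd274 (ENSMUSG00000016496) lies at chr19:29367455-29388095 and Pdcd1lg2 (ENSMUSG00000016498) at chr19:29410919-29471161, both on the plus strand with 22.8 kb between them. Their promoters are printed because the ligands parted in hypoxic spots. That of Lgals9 is printed because this gene was somewhat higher in interferon-rich spots of both libraries, as described below. Each is the 300 bases from 250 before to 50 after the start of the gene in RefSeq (GRCm38.p6), which covered 7 of the 9 members (not Lag3 and Tox). Capitals mark ACGTG or GCGTG, the core letters of a hypoxia response element, on either strand in the ligands for PD-1, and the core of an interferon-stimulated response element (GAAA, any 2 bases, then GAAA) on either strand in Lgals9.
Cd274 promoter, chr19:29367188-29367487, plus strand: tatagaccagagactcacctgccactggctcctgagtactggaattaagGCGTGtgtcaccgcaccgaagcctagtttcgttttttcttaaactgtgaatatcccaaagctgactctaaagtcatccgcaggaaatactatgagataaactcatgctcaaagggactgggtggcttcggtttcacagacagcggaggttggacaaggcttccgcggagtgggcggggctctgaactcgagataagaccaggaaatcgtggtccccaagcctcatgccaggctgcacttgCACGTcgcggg
Pdcd1lg2 promoter, chr19:29410669-29410968, plus strand: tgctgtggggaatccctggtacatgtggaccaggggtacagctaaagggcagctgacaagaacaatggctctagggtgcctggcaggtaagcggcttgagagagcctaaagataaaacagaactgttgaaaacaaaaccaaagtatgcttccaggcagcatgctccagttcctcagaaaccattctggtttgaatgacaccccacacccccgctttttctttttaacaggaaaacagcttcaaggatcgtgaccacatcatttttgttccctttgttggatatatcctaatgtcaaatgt
Lgals9 promoter, chr11:78984875-78985174, minus strand: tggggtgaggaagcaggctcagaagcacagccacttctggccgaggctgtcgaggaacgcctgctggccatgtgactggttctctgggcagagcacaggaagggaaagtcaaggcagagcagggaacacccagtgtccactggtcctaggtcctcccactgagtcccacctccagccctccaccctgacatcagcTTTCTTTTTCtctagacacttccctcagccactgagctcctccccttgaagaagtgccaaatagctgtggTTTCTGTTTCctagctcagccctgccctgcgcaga
The Cd274 window held GCGTG at position -201 from the start and ACGTG on the other strand at position 39, and the Pdcd1lg2 window held neither. Among 32544 distinct promoter windows of this length 44.0% held one or the other, so the match is common and describes the letters only. ACGTG alone also occurred in the windows of Ctla4, Havcr2 and Tigit and in 19.7% of all windows. Lgals9 held the interferon core at 2 places, both on the other strand, where 3.45% of all windows held it at all. None of the other windows read held it, those of Cd274 and Pdcd1lg2 among them. Both PD-1 ligands were also higher in interferon-rich spots, and by more than Lgals9 was, as described below. This match too therefore describes the letters only. TTCNNNGAA, the core of a STAT binding site, was searched on either strand, was in 8.33% of windows and in none of the 7.

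For Cd274 the order of the libraries turned with acinar tissue, and Pdcd1lg2 was higher in the KPC-shZEB1-labelled library with and without it. Cd274 stood at 52.1 CPM in the KPC-shZEB1-labelled library and 55.4 in KPC-shV over all spots (log2 ratio -0.09), and at 83.0 and 57.4 CPM outside acinar-rich spots (0.53, 0.49 to 0.58). Pdcd1lg2 stood at 13.3 and 12.0 CPM over all spots (0.15) and at 21.0 and 12.4 outside acinar-rich spots (0.75, 0.66 to 0.85). Summed, the ligands were level over all spots (65.4 and 67.4 CPM, log2 ratio -0.04) and higher in the KPC-shZEB1-labelled library outside acinar tissue (0.57). At 20000 UMIs Cd274 was seen in 66.7% and 57.7% of spots outside acinar tissue and 7.27% and 5.92% of acinar-rich spots, and Pdcd1lg2 in 28.4% and 20.9% outside and 2.96% and 0% within (0 of 152 spots in KPC-shV, which allows up to 3 spots).

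Hypoxic spots set the ligands apart in KPC-shV. These spots, classed by genes such as Car9, Vegfa and Slc2a1, numbered 447 in KPC-shV and 12 in the KPC-shZEB1-labelled library. Their median depths were 26997 and 37902 UMIs, against 60986 and 58671.5 in the remaining spots. Cd274 stood at 149.5 CPM in hypoxic spots of KPC-shV and 48.2 in other spots, a log2 ratio of 1.63 (1.56 to 1.71) from 1972 UMIs. Pdcd1lg2 stood at 4.09 and 13.2 CPM, a log2 ratio of -1.69 (-2.11 to -1.30). The gene beside Cd274 was thus lower where Cd274 was higher, and the intervals of the ratios did not overlap. In the 12 hypoxic spots of the KPC-shZEB1-labelled library, Cd274 stood at 160 CPM against 82.6 (0.95), and Pdcd1lg2 gave 9 UMIs (19.4 against 21.0 CPM). That class was small, and with a limit set within the KPC-shZEB1-labelled library alone (146 spots) Cd274 was lower in hypoxic spots, at 63.1 against 84.9 CPM (-0.43), and Pdcd1lg2 was lower as well, at 9.63 against 22.0 (-1.19). With a limit of its own, KPC-shV kept both directions (1.77 and -1.69). The limits were 1522 CPM of hypoxia genes in the KPC-shZEB1-labelled library and 5533 in KPC-shV, where the pooled limit was 4675. The spots above them had 2756 and 7004 CPM of these genes, so these classes were not equally hypoxic.

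Hypoxic spots of KPC-shV were also neutrophil-rich more often than not, 301 of 447 (67.3%), and neutrophil genes were higher there by 2.47. Spots that were both had Cd274 at 226.8 CPM, hypoxic spots that were not neutrophil-rich (146) had 71.8, neutrophil-rich spots that were not hypoxic (144) had 106.2 and spots that were neither (2536) had 46.3. Cd274 was thus highest where both lists were high, and higher with either alone than with neither. Pdcd1lg2 stood at 4.2, 3.9, 6.9 and 13.4 CPM in the same order, lower with either list. In neutrophil-rich spots as a whole Cd274 was higher in both libraries, by 1.69 (14 spots in the KPC-shZEB1-labelled library) and 1.90 (445 in KPC-shV). In hypoxic spots of KPC-shV Cd3 genes (-2.30), macrophage genes (-1.69) and interferon response genes (-1.44) were lower and tumor epithelial genes were higher (0.51), and the part of these lists in the ligand levels was not tested.

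The hypoxic and neutrophil-rich spots weighed on the comparison of the libraries. They held 26.5% of the Cd274 UMIs in the classed spots of KPC-shV and 2.14% of those in the KPC-shZEB1-labelled library. In spots that were neither (1433 and 2536), a set chosen after the values were seen, Cd274 stood at 82.0 and 46.3 CPM (log2 ratio 0.82, 0.77 to 0.87) and Pdcd1lg2 at 20.9 and 13.4 (0.64). Of the receptors, Pdcd1 (1.74) and Ctla4 (1.69) kept the size of their ratios there.

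The receptor values in hypoxic spots depended on the limit of the class. In the 12 hypoxic spots of the KPC-shZEB1-labelled library, Pdcd1, Ctla4, Tigit and Tox had no UMI, where 3 UMIs would be 6.47 CPM, so the depth there cannot place them against other spots. With the limit set within that library (146 spots), Pdcd1 stood at 1.90 CPM in hypoxic spots and 7.28 in others (log2 ratio -1.94, -2.82 to -1.18). Ctla4 was lower there by 1.74 and Lag3 by 1.28, and the 4 summed receptors had a log2 ratio of -1.50 (-1.91 to -1.11). Cd3 genes were lower in the same spots, at 19.4 against 84.9 CPM (-2.13), and their part in the receptor levels was not tested. That limit lay at 1522 CPM of hypoxia genes, below the pooled limit of 4675, so it took in less hypoxic spots. In KPC-shV with the pooled limit, Pdcd1 stood at 1.14 CPM in hypoxic spots and 2.01 in others (log2 ratio -0.82, -1.68 to -0.08), Lag3 was lower by 0.62 and Havcr2 by 0.42, while Ctla4 (0.01, -0.60 to 0.57) and Tigit (-0.06, -0.60 to 0.44) gave intervals that included no difference. With its own limit, KPC-shV gave intervals that included no difference for Pdcd1 (-0.47, -1.44 to 0.35), Lag3 (-0.45, -1.17 to 0.19) and Havcr2 (-0.23, -0.54 to 0.06) too. Cd3 genes had a log2 ratio of -2.16 with that limit. With the pooled limit, none of 9 members in the KPC-shZEB1-labelled library and 1 in KPC-shV was at least 2-fold higher in hypoxic spots. The shares of all genes were 7.54% and 6.42%. At least 2-fold lower were 1 and 2 of 9, beside 22.1% and 7.10%. The 4 members with no UMI in the KPC-shZEB1-labelled class were left out of the count of 1. Genes with no UMI there were kept in the 22.1%, so that count and that share cannot be compared.

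Interferon-rich spots had more of both ligands in both libraries. By genes of the interferon response, 337 spots of the KPC-shZEB1-labelled library and 122 of KPC-shV were interferon-rich. Cd274 stood at 144 CPM there against 61.5 in other spots (log2 ratio 1.22) in the former and at 180 against 51.4 (1.81) in the latter. Pdcd1lg2 was higher by 0.97 (32.8 against 16.8 CPM) and 2.13 (48.4 against 11.1 CPM). The ligands thus went the same way in interferon-rich spots and opposite ways in hypoxic spots of KPC-shV. At least 2-fold higher in interferon-rich spots were 1 of 9 members and 6 of 9, beside 0.549% and 4.67% of all genes. The ligands were also higher in macrophage-rich spots, Cd274 by 1.21 and 0.76 and Pdcd1lg2 by 0.93 and 1.87, and in T cell rich spots, Cd274 by 1.01 and 1.62 and Pdcd1lg2 by 1.15 and 2.06.

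The ligands were also followed over the whole range of spots. With the spots of both libraries (outside acinar-rich spots, 5000 UMIs or more) pooled and divided into quintiles by a list, Pdcd1lg2 went with macrophage genes in nearly the same way in each library, from 3.02 CPM in the lowest quintile through 8.09, 13.4 and 25.0 to 36.5 in the KPC-shZEB1-labelled library, and from 3.13 through 7.53, 11.1 and 21.9 to 36.2 in KPC-shV. Cd274 by interferon genes went from 15.9 to 121 CPM in the KPC-shZEB1-labelled library, with each quintile above the one before. In KPC-shV its first 4 quintiles lay between 41.7 and 58.7 CPM and the highest was at 127. By hypoxia genes Cd274 in KPC-shV lay between 38.0 and 55.5 CPM over the first 4 quintiles and at 93.4 in the highest, and in the KPC-shZEB1-labelled library it was highest in quintile 2 (92.8) and at 67.7 in the last. Per macrophage UMI outside acinar-rich spots the libraries were close, with log2 ratios of -0.09 for Cd274 and 0.14 for Pdcd1lg2. Per interferon response UMI both ligands were lower in the KPC-shZEB1-labelled library (-0.77 and -0.54). Both denominators were themselves higher in CPM in that library, so a gene level in CPM would be lower on either scale. The median gene was not placed on these scales.

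**Figure D4:**
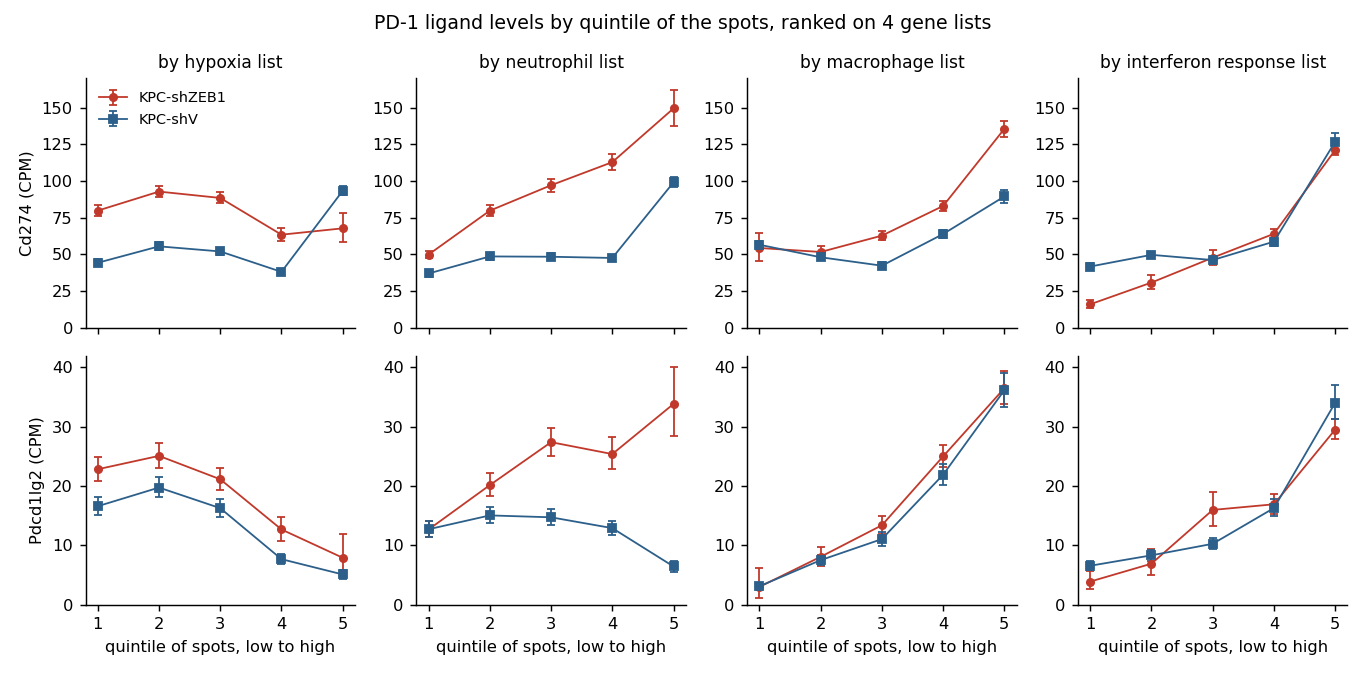
Level of Cd274 and Pdcd1lg2 (y axis, CPM, 95% counting intervals) by quintile of spots (x axis, 1 lowest to 5 highest) on hypoxia, neutrophil, macrophage and interferon response genes, with quintiles set over both libraries pooled, outside acinar-rich spots. Pdcd1lg2 climbs with macrophage genes to 36.5 in KPC-shZEB1 and 36.2 in KPC-shV, and Cd274 of KPC-shV is highest in the most hypoxic quintile (93.4), where Pdcd1lg2 is low (5.11).

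Lgals9 (ENSMUSG00000001123, chr11:78962974-78984946, minus strand), which encodes galectin-9, was seen in nearly every spot. It stood at 210.4 CPM in the KPC-shZEB1-labelled library and 199.7 in KPC-shV over all spots (log2 ratio 0.08) and at 285.7 and 202.2 CPM outside acinar-rich spots (0.50). Acinar-rich spots themselves had 93.4 and 136.2 CPM, and at 20000 UMIs it was seen in 75.4% and 91.4% of them. It was not higher with T cells or macrophages in the KPC-shZEB1-labelled library: 272 CPM in T cell rich spots against 290 in others (-0.09, -0.14 to -0.05), and 219 against 292 in macrophage-rich spots (-0.42, -0.49 to -0.34). In KPC-shV both were slightly higher (0.19 and 0.18). In interferon-rich spots Lgals9 was higher in both libraries, by 0.39 (347 against 264 CPM) and 0.36 (257 against 200). It climbed with tumor epithelial genes in the KPC-shZEB1-labelled library, from 194 CPM in the lowest quintile to 372 in the highest, and lay between 188 and 216 CPM over all quintiles in KPC-shV.

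Tox (ENSMUSG00000041272, chr4:6686353-6991557, minus strand) was higher in the KPC-shZEB1-labelled library, at 2.22 against 1.53 CPM over all spots (log2 ratio 0.54, 0.30 to 0.78) and at 2.73 against 1.30 outside acinar-rich spots (1.07, 0.80 to 1.35), where the KPC-shV level was not above the range of the 18 genes with no known role (up to 1.45 CPM). Acinar-rich spots went the other way, at 1.43 against 7.38 CPM (-2.36, -2.90 to -1.81), the latter from 48 UMIs in 251 spots of KPC-shV. That level was above the one outside acinar-rich spots of the same library, and at 20000 UMIs Tox was seen in 15.1% of 152 acinar-rich spots of KPC-shV against 2.77% of spots outside, the reverse of every receptor. In T cell rich spots it was higher by 0.77 in the KPC-shZEB1-labelled library (0.36 to 1.17), and in KPC-shV only 6 UMIs were found there.

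Pairs of receptor and ligand were counted in the same spot at 20000 UMIs, with no claim that the proteins met. Cd274 was seen in 73.1% of spots with Pdcd1 and 65.9% without in the KPC-shZEB1-labelled library (intervals 65.4 to 79.9 and 63.2 to 68.5), and in 66.7% and 57.3% in KPC-shV (56.8 to 75.6 and 55.3 to 59.2). Pdcd1lg2 was seen in 36.5% and 27.3%, and in 33.3% and 20.4%. Spots with Pdcd1 thus had either ligand more often, with intervals that overlapped except for Pdcd1lg2 in KPC-shV. Ctla4 went with Cd86 (56.0% against 40.8%, and 32.4% against 22.5%) and with Cd80 (43.5% against 28.9%, and 35.1% against 26.2%), with intervals apart in the KPC-shZEB1-labelled library and overlapping in KPC-shV. Tigit was not seen more often with Pvr (26.8% against 32.0%, and 41.3% against 41.7%) or Nectin2 (78.9% against 83.0%, and 79.0% against 85.2%), and Havcr2 with Lgals9 was near its ceiling in every class.

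The other genes of the pathway were read from lists, with genes counted as at least 2-fold higher or lower in the KPC-shZEB1-labelled library outside acinar-rich spots, where 4.81% of all genes were higher and 2.02% lower. Of 9 measured other inhibitory receptors, 2 were higher and none lower: Btla, which restrains B and T cells through HVEM (log2 ratio 2.10), and Cd160 (1.34). Cd244a and Cd101 were the lowest of them, at 0.31 and 0.27. Of 8 costimulatory receptors, 5 were higher and none lower, with Cd226, the activating counterpart of TIGIT, at 2.08 and Cd27 at 2.03. Tnfrsf9, the gene of 4-1BB, was the lowest at -0.92, followed by Tnfrsf4, the gene of OX40, at 0.70. Effector genes had 3 of 6 higher, with Nkg7 at 1.56 and Ifng at 1.42 and the granzymes Gzma and Gzmb at 0.55 and 0.60. The regulatory T cell list had 2 of 4 higher (Il2ra 1.50 and Foxp3 1.05), with Ccr8 at 0.91 and Ikzf2 at 0.50. Foxp3 itself, at 1.26 and 0.60 CPM in the classed spots, lay within the range of the 18 genes with no known role in both libraries. All these lists leaned the way of the T cell genes, and each median lay below the log2 ratio of Cd3 itself.

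Among 14 measured partners and ligands of checkpoints, 3 were higher and 1 was lower. Ido1, an interferon-induced enzyme that depletes tryptophan, stood at 2.10 and Cd86 at 1.15, while Vtcn1, the inhibitory ligand B7-H4, stood at -1.04 and Cd276, the ligand B7-H3, at -0.55. The TIGIT ligands did not follow: Pvr stood at -0.54 and Nectin2 at -0.02, and Cd80 at 0.31. Of 10 transcription factors of exhaustion and memory 3 were higher and none lower, with Lef1, a factor of naive and memory T cells, at 1.88, Nr4a3 at 1.59, Nr4a1 at -0.30 and Id2 at -0.31. Over all spots, where 2.40% of all genes were higher and 9.21% lower, the counts were smaller or turned: partners and ligands had 1 higher and 4 lower, costimulatory receptors 3 higher and 1 lower, other inhibitory receptors and transcription factors 1 higher each, and effector and regulatory T cell genes none in either direction.

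As a last description, spots were divided into 16 groups (8 classes in each library that do not overlap) and the genes most like each member over these groups were listed by Pearson's r of log2(CPM + 1). The groups share their libraries, their depth and their size differences, and no p is given. Pdcd1 was most like Ms4a4b (r = 0.98) and Ubash3a (0.98), a T cell signaling gene, and Ctla4 most like Grap2 (0.99), an adaptor of T cell receptor signaling, and Trdc (0.98). Among the members, r was 0.94 for Pdcd1 and Ctla4 and 0.24 for Pdcd1 and Cd274. Both values include a neutrophil-rich group of 4 spots and a hypoxic group of 9 spots in the KPC-shZEB1-labelled library. Pdcd1 had no UMI in either, while Cd274 stood at 281 and 116 CPM. Values between members were not computed without these small groups, so the 0.24 cannot show that Pdcd1 and Cd274 are unlike. Cd274 was most like Rasgef1b (0.97), Sema4d (0.96) and Il1b (0.95), the last a cytokine of inflammatory myeloid cells, and Pdcd1lg2 most like Samhd1 (0.96), Gbp7 (0.95) and Gbp4 (0.95), which are interferon-induced. Havcr2 was most like Cers5 (0.97), Lgals9 most like Dbi (0.97), Lag3 most like Apol7c (0.95), and Tox most like Rab27a (0.88). Tigit was most like Pla2g4f (0.95), Dlx4 (0.93) and Olfr45 (0.93), the last an olfactory receptor gene. For some members not all 3 genes are named. With the 2 groups of under 20 spots left out, 2 of the 3 genes listed for Cd274, 1 of 3 for each of Pdcd1, Ctla4, Pdcd1lg2, Lag3, Havcr2, Tox and Lgals9, and none for Tigit were shared, so the lists are loose.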

How the data were processed

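Spatial gene expression (Visium CytAssist, a probe-based assay) was measured in 2 tumor sections, 1 per group. Reads were mapped by the authors to the mouse genome (mm10, Space Ranger 2.0.1, per the submitters' processing notes), and they deposited counts of UMIs per gene and spot, not normalized, for spots under tissue. These counts were summed over spots and given as CPM with exact Poisson intervals, and ratios between summed counts with exact conditional binomial intervals. The interval of a ratio per Cd3 UMI used a normal approximation on the log scale. Shares of spots have exact Clopper-Pearson intervals. No count model was run, because each group is 1 library. All columns of values were used. Depth was 140493626 and 172059528 UMIs, so 1 CPM was about 140 and 172 UMIs.

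Spot classes, thinning (seed 1) and the minimum of 100 UMIs per gene are given with the results. Krt18 of the epithelial list and Cpb1, Pnliprp1, Try5 and Amy2b of the acinar list had no feature and were left out. Named genes were the 9 members, the 2 highest and 2 lowest of each pathway list, and the ligands paired with a receptor. Also named were T cell genes as yardsticks for Cd3, and genes from the 3 most like each member, not all of them. Members and lists were chosen with earlier results of these data known. Alternatives were the scaling, the acinar tissue, the class limits, the T cell yardstick, depth and seed. Those on Trbc1, on small spot groups and on spots neither hypoxic nor neutrophil-rich were chosen after seeing the data. The scripts (Python 3.11.15, numpy 2.4.6, scipy 1.17.1, pandas 2.3.3, matplotlib 3.10.9) were tested on simulated data. Gene positions are from GENCODE M21 and promoters from RefSeq, both on GRCm38, the build of mm10. Some items of the study are not reported here.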

Additional observations from a re-analysis of the deposited data

Results flagged for a closer look

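Members in T cell rich, macrophage-rich, hypoxic, neutrophil-rich and interferon-rich spots were searched for opposite directions in the libraries. In 3 of these comparisons the libraries went opposite ways, each with an interval that excluded no difference. The difference between the libraries was not tested, since each group is 1 library. Lgals9 was lower in T cell rich than in other spots of the library labelled KPC-shZEB1 (log2 ratio -0.093) and higher in KPC-shV (0.19). It was lower in macrophage-rich spots of the library labelled KPC-shZEB1 (-0.42) and higher in KPC-shV (0.18). Pdcd1lg2 was higher in neutrophil-rich spots of the library labelled KPC-shZEB1 (0.95, from 16 UMIs in 14 spots) and lower in KPC-shV (-1.28). These neutrophil-rich spots were unlike in other lists. In the library labelled KPC-shZEB1 71.4% of them were also B cell rich and 21.4% hypoxic, against 8.76% and 67.6% in KPC-shV. The part of this in the ratios was not tested. The other spot classes were not searched, so opposite directions there are not listed. In fibroblast-rich spots, for one, 3 of 9 members were lower and 2 were higher in the library labelled KPC-shZEB1, by their intervals. In KPC-shV 7 of 9 were higher and none was lower. Median depths of these spots were 43406.5 and 18683 UMIs. The share of all genes was not computed for this class, so the counts cannot be read as particular to the members.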

How the results depend on the processing

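No paired analysis was possible because each group is 1 library, and for the same reason no replicate could be left out. All ratios are log2 of KPC-shZEB1 over KPC-shV, or of a class over other spots, and the cause of a change with the setting was not tested. The summed receptors over all spots (0.38) were 0.99 without acinar-rich spots, 0.75 without acinar UMIs, 0.86 with median-of-ratios scaling, 0.25 as a mean over spots and 0.68 after subtracting the genes with no known role. The summed PD-1 ligands (-0.04) turned positive without acinar-rich spots (0.57), without acinar UMIs (0.32), with median-of-ratios scaling (0.44) and as a mean of genes (0.029), and were -0.67 as a mean over spots and -0.26 without the top 5% of spots. Receptors per Cd3 UMI (-1.52) were 0.087 per UMI of the wider T cell list, -1.15 without Trbc1, -1.34 per CD8 UMI and -0.27 in T cell rich spots.

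For spot classes, receptors in T cell rich spots of KPC-shZEB1 (1.30) were 1.49 with the limit set within the library, and those of KPC-shV (2.05) were 2.42 with the top 5%, 1.51 with the top 20% and 1.38 with its own limit. PD-1 ligands in macrophage-rich spots of KPC-shZEB1 (1.15) were 1.56 and 1.02 with the top 5% and 20% and 1.28 without B cell rich spots, and those of KPC-shV (1.02) were 0.87 with the top 5%, 1.24 above 20000 UMIs and 1.12 without B cell rich spots. In hypoxic spots of KPC-shZEB1 the ligands (0.79) were 1.41 with the top 5% and turned negative with the top 20% (-0.47), the library's own limit (-0.56) and above 20000 UMIs (-0.070). Those of KPC-shV (1.32) were 1.59, 0.69, 1.47 and 0.78 with the top 5%, the top 20%, its own limit and above 20000 UMIs, and its receptors (-0.34) were -0.73 with the top 20% and -0.74 above 20000 UMIs. The share of spots with any of the 4 receptors, 30.8% in KPC-shZEB1 and 17.5% in KPC-shV at 20000 UMIs, was 9.48% and 5.82% at 5000 UMIs and 57.8% and 36.7% without thinning.

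Of single members, Cd274 (-0.09) turned to 0.53 without acinar-rich spots, 0.28 without acinar UMIs, 0.39 with median-of-ratios scaling and 0.82 in spots neither hypoxic nor neutrophil-rich, and Lag3 (-0.38) to 0.23, 0.11 and 0.16 without acinar-rich spots, with that scaling and in those spots. Per UMI of the wider T cell list Pdcd1 was 0.90, Ctla4 0.79 and Tox 0.24. Per Cd3 UMI in T cell rich spots Ctla4 was 0.10, Tigit 0.69, Tox 0.52 and Lgals9 0.089. Cd274 in hypoxic spots of KPC-shZEB1 was -0.30 with the top 20% and -0.43 with its own limit, and Lgals9 in T cell rich spots there was 0.023 with the top 20% and 0.036 without B cell rich spots. In all, 28 of the values for summed receptors and ligands moved by less than their interval, 31 by more and 8 changed sign, and for single members these were 234, 113 and 18. Depth limits Pdcd1, Ctla4, Lag3, Tigit and Tox, each under 5 CPM over all spots in either library.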
